A study of Gallus gallus with 2 samples.

Results

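This section describes the ubiquitin conjugating enzymes and the ubiquitin-specific proteases of the chicken B cell line DT40 in PTIP deficient and in wild-type cells. The members were all genes whose symbol on the array begins with UBE2, or with USP followed by a digit, apart from 3 symbols that were not analysed here. That gave 63 of the 13009 genes named on the array, 22 of them UBE2 genes and 41 USP genes. Each gene was represented by its brightest probe set (highest mean log2 signal of both arrays). The rule for members used no difference between the genotypes, but members, role groups and pathway lists were chosen with earlier results of these data known.

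The study compared PTIP deficient DT40 cells, in which the labels give all 3 alleles of the gene as disrupted (PTIP-/-/-), with wild-type DT40 cells. DT40 is an established line from the bursa of Fabricius, both cultures were kept at 39°C, and the labels describe each as a clone. Total RNA of each genotype was hybridised to 1 Affymetrix chicken genome array, so there were 2 arrays and no replicates. No test between genotypes is therefore possible, no value below has an error, and differences are described by size on the log2 scale as PTIP deficient minus wild-type.

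Ubiquitin is activated by an E1 enzyme, passed to the cysteine of an E2 conjugating enzyme (the UBE2 genes) and joined to its target by an E3 ligase. The E2 and E3 together set which chain is built, and chains differ in whether they send a protein to the proteasome or serve as a signal. Ubiquitin-specific proteases (the USP genes) are the largest family of deubiquitinating enzymes and take ubiquitin off again. In B cells, as in other dividing cells, these enzymes act in cell cycle progression, in the response to DNA damage, on histones H2A and H2B, and in signalling. Roles named below were established mostly for the human, mouse or yeast proteins.

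As a check of the labels, PAXIP1, the gene that encodes PTIP, had a signal of 593 in PTIP deficient, against 1045 in wild-type cells (log2 ratio -0.82) with the 1 of its 3 probe sets that was measured. No source used here says where the probe sets lie relative to the disrupted exons, so this value neither shows nor contradicts the disruption. A probe set counted as measured where its signal reached 31.0, percentile 40 of all signals, and 60.4% of probe sets did so in the PTIP deficient array and 59.6% in the wild-type array. Signals under 131.5, the highest of the reporter sequences outside 1 bright value, cannot be told from background with confidence. Of 12 B cell marker genes on the array all were measured in both arrays, and 5 of them had at least 2-fold lower signals in PTIP deficient cells (median log2 ratio -0.78). Of 11 T cell markers 6 were measured in both arrays, 2 of them with at least 2-fold higher signals, and the list's summed signal was 17507 in PTIP deficient, against 9550 in wild-type cells. Most of that sum was CD3D, while CD4, CD28 and LCK were under 31.0 in both arrays. The 2 past 2-fold were CD8A (563 in PTIP deficient and 78.2 in wild-type cells) and CD5 (303 in PTIP deficient and 73.3 in wild-type cells). Both wild-type signals were under 131.5, against which CD8A was at least 4.28-fold and CD5 at least 2.30-fold higher. Of 8 fibroblast and epithelial markers 4 were measured in both arrays, and the list's summed signal was 1478 in PTIP deficient, against 366 in wild-type cells. Most of that sum in PTIP deficient cells was LUM, with 1019 in PTIP deficient and 6.18 in wild-type cells, while DCN and EPCAM were under 31.0 in both arrays. COL1A1 had 206 in PTIP deficient and 65.7 in wild-type cells, at least 1.56-fold higher against 131.5. COL1A2 had 147 in PTIP deficient and 138 in wild-type cells (0.09). COL3A1 (-0.04) and PDGFRA (-0.80) were under 131.5 in both arrays, and CDH1 reached 31.0 in wild-type cells alone. The list's median log2 ratio was 0.03, with 2 ratios above 0 and 2 below. Of 9 macrophage and granulocyte markers 5 were measured in both arrays, and the list's summed signal was 1789 in PTIP deficient, against 3306 in wild-type cells. Most of it was SPI1, which B cells also express, 2.08-fold lower in PTIP deficient cells. The other 4 measured markers, MARCO, TLR4, C1QA and CSF1R, lay above 0, with signals under 131.5 in both arrays. The list's median log2 ratio was thus 0.37 although its sum was lower, and 2 further markers reached 31.0 in wild-type cells alone. Of 6 erythroid and thrombocyte markers 3 were measured in both arrays, none 2-fold apart. The list summed to 1581 in PTIP deficient, against 2395 in wild-type cells. Most of that sum was ALAS1, which entered the list only as a synonym match to ALAS2, so the sum says little about erythroid markers. The part of these marker differences in the values below was not tested. In RNA from whole cultures, fewer cells of a kind and less RNA per cell cannot be told apart.

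Most ubiquitin conjugating and deubiquitinating enzymes had similar signals in both genotypes. Of the 63 genes, 59 were measured in both arrays, and 54 had both signals at or over 131.5. Among the 59, 2 were at least 2-fold higher in PTIP deficient cells (UBE2QL1 and USP30), 1 was at least 2-fold lower (USP3) and 56 lay within 2-fold. Of all 9165 measured genes, 5.03% were higher and 4.46% lower by 2-fold or more, together 9.49%. The members' share was 5.08%. At a lower bar of 1.5-fold, 8 members were higher and 5 lower, against 13.1% and 11.5% of all genes. Together these were 13 of the 59 members, beside 24.5% of all genes. Many of those genes are dim, and among genes with both signals at or over 131.5, 3 of 54 members (5.56%) were past 2-fold, beside 5.84% of all 6658 such genes. At 1.5-fold the shares in that set were 12 of 54 members (22.2%), beside 18.0% of all. The members' shares were thus close to the background at both bars in that set. They pool UBE2 and USP genes, whose shares differed and are given apart below.

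The members' median log2 ratio was 0.10, beside 0.03 over all measured genes, and 38 of 59 ratios were above 0 (64.4%, against 52.6% of all genes). That median depends on the probe set: it was 0.038 for the 48 members left without _s_at and _x_at probe sets, which can also detect related sequences, and -0.0085 with the second brightest probe set, which 37 members have. Medians were 0.10 for the 22 UBE2 genes and 0.13 for the 37 measured USP genes. UBE2 genes lay closer to 0, with a median absolute log2 ratio of 0.18 and 2 of 22 past 1.5-fold. USP genes had a median absolute log2 ratio of 0.34 and 11 of 37 past 1.5-fold (29.7%). Over all 9165 measured genes the median absolute log2 ratio was 0.30 and 24.5% were past 1.5-fold. The USP values were somewhat above these, and many of the 9165 genes are dim. Of the 37 USP genes 32 had both signals at or over 131.5, and these held all of the 11 past 1.5-fold except USP12. Of all genes with such signals 18.0% were past 1.5-fold. The share of the 32 USP genes was thus above 18.0%, and that of the 22 UBE2 genes, 9.09%, was below it. The UBE2 probe sets were also brighter, with a median mean log2 signal of 11.6 against 9.89 for the USP probe sets; the part of brightness in this contrast was not tested. Among genes with both signals at or over 131.5, the median absolute log2 ratio was 0.26 for the 54 members and 0.26 for all 6658 genes. Those 54 pool the 22 UBE2 genes with 32 USP genes, so this value does not describe the USP genes alone.

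**Figure D1:**
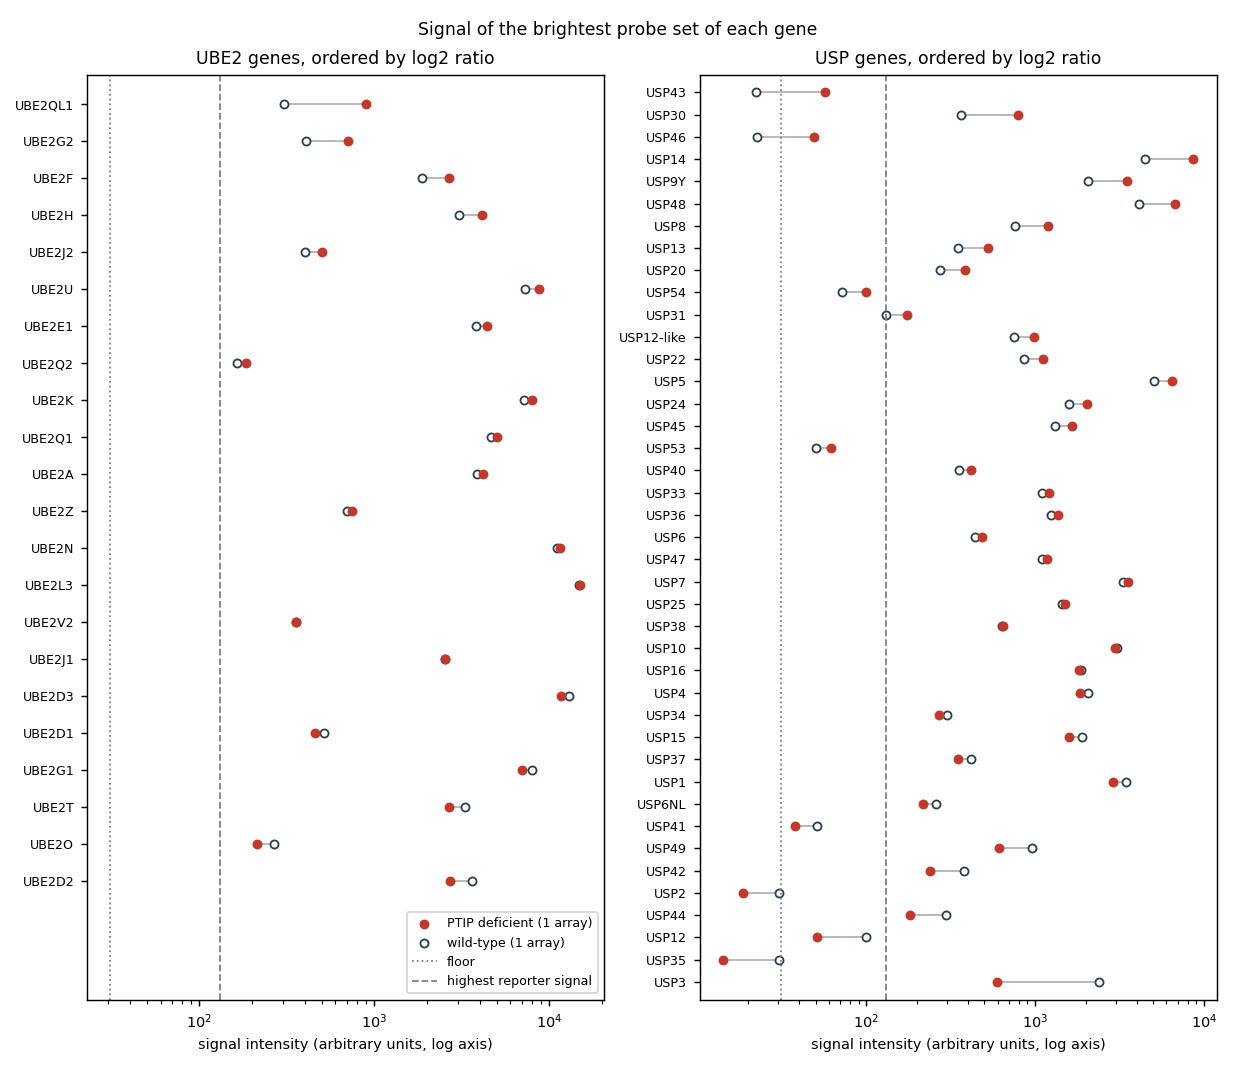
Signal intensity of the brightest probe set of each of the 22 UBE2 genes (left) and 41 USP genes (right), on a log axis, with PTIP deficient cells as filled and wild-type cells as open circles (1 array each, no error bars). The dotted line is the floor of 31.0 and the dashed line 131.5, and genes run down the page from the highest to the lowest ratio. The circles overlap or nearly touch for most genes, and the widest gaps among genes over 131.5 in both arrays are those of USP3, with the lower signal in PTIP deficient cells, and UBE2QL1, with the higher one. USP43, USP46, USP2 and USP35 have a signal under the floor of 31.0, so their place in the order is not settled.

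**Figure D2:**
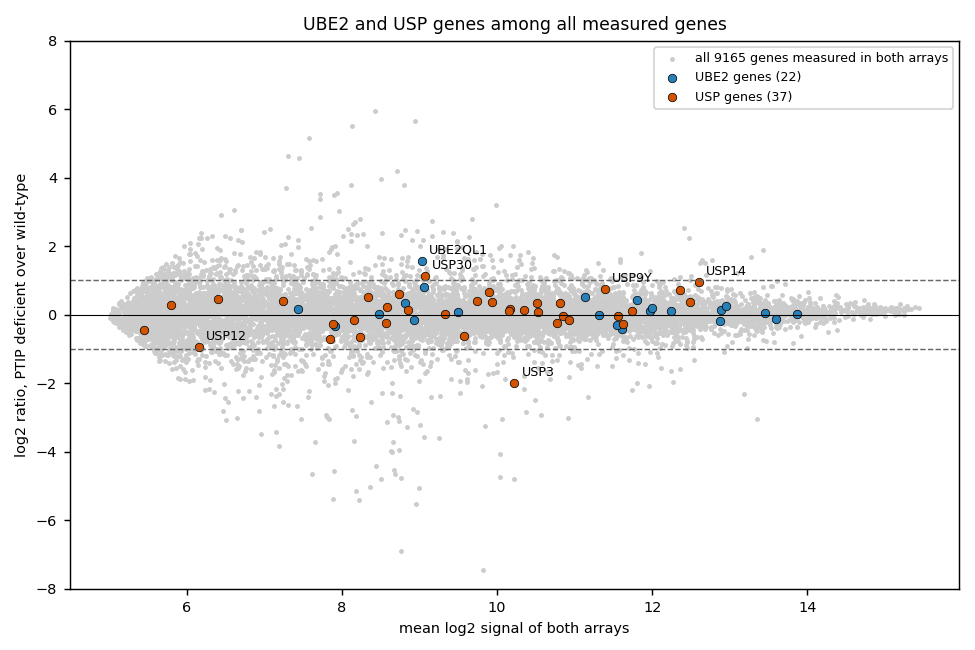
Log2 ratio of PTIP deficient over wild-type cells against the mean log2 signal for the 9165 genes measured in both arrays (grey), with the 22 UBE2 genes in blue and the 37 measured USP genes in orange. Dashed lines mark 2-fold. Of the members, USP3 lies below the lower line and UBE2QL1 and USP30 above the upper line, while USP14 sits just inside the upper one.

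The E2 enzymes that serve many ligases kept similar signals. UBE2D1, UBE2D2 and UBE2D3 belong to the UBE2D group, which works with a broad range of RING and HECT ligases. UBE2D2 had a signal of 2704 in PTIP deficient, against 3604 in wild-type cells, a log2 ratio of -0.41 and the lowest among the UBE2 genes. UBE2D3 had 11757 in PTIP deficient cells and 12950 in wild-type cells (-0.14), its 4 measured probe sets ranging from -0.22 to 0.26, and UBE2D1 had 460 in PTIP deficient and 516 in wild-type cells (-0.17). All 3 were thus slightly lower, none by as much as 1.5-fold. UBE2L3, which hands ubiquitin to HECT and RBR ligases, had 15099 in PTIP deficient cells and 14838 in wild-type cells. The log2 ratio was 0.20 for UBE2E1 and 0.44 for UBE2H, an E2 of the CTLH ligase. In this group 3 of the 6 genes lay above 0 and 3 below, beside 52.6% of all measured genes above 0. None of the 6 was past 1.5-fold, beside 24.5% of all measured genes.

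Among E2 enzymes of endoplasmic reticulum degradation and chain building, UBE2G2 stood highest. UBE2G2, which builds chains on misfolded proteins that leave the endoplasmic reticulum, had a signal of 707 in PTIP deficient, against 405 in wild-type cells, 1.74-fold higher. Its 3 measured probe sets agreed, from 0.64 to 0.80 on the log2 scale, the lowest value being that of a probe set under 131.5 in both arrays. Its paralog UBE2G1 was at 6999 in PTIP deficient cells and 7995 in wild-type cells, with both probe sets slightly below 0 (-0.19 and -0.18). UBE2J1 and UBE2J2, which are anchored in the endoplasmic reticulum membrane, had log2 ratios of -0.0018 and 0.33, and UBE2K, which extends chains, 0.15.

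The E2 enzymes of DNA damage tolerance and repair differed little with their brightest probe sets. UBE2A, a RAD6 homolog that monoubiquitinates PCNA and histone H2B with its ligases, had 4167 in PTIP deficient cells and 3890 in wild-type cells (0.10). UBE2N is the catalytic subunit of the enzyme that builds signalling chains at DNA breaks and on PCNA. Its brightest probe set had 11454 in PTIP deficient cells and 11067 in wild-type cells (0.05). The second brightest was lower, at 1011 in PTIP deficient, against 1313 in wild-type cells (-0.38). All 5 measured probe sets ranged from -0.47 to 0.57, both ends being dim probe sets under 131.5. UBE2V2, the partner of UBE2N without a catalytic cysteine, had 359 in PTIP deficient and 356 in wild-type cells. UBE2T, the E2 that monoubiquitinates FANCD2 with the Fanconi ligase FANCL, was slightly lower, at 2690 in PTIP deficient, against 3297 in wild-type cells (-0.29, 1 probe set). All 4 genes lay within 1.5-fold, as did most measured genes, of which 24.5% were past that bar.

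Of E2 enzymes for ubiquitin-like proteins, UBE2F, which conjugates NEDD8 to cullin 5, had a signal of 2671 in PTIP deficient, against 1882 in wild-type cells (0.50), with 3 further probe sets under the floor. UBE2Z, which takes ubiquitin or FAT10 from the E1 enzyme UBA6, had 746 in PTIP deficient and 700.2 in wild-type cells (0.09). Neither reached 1.5-fold.

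The highest ratio of any member belonged to UBE2QL1, a gene named for its likeness to the UBE2Q enzymes. It had a signal of 899 in PTIP deficient, against 303 in wild-type cells, 2.97-fold higher (log2 ratio 1.57), and ranked 145 from the top among the 9165 genes. This rests on a single probe set of the _s_at kind, which can also detect related sequences. UBE2Q1 and UBE2Q2, the enzymes it is named for, had log2 ratios of 0.12 and 0.17, the second with a further probe set under 131.5 in both arrays. UBE2O, a large enzyme that acts as both E2 and E3, had 214 in PTIP deficient cells and 269 in wild-type cells (-0.33), and the gene annotated as UBE2U had 8703 in PTIP deficient and 7253 in wild-type cells (0.26).

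**Figure D3:**
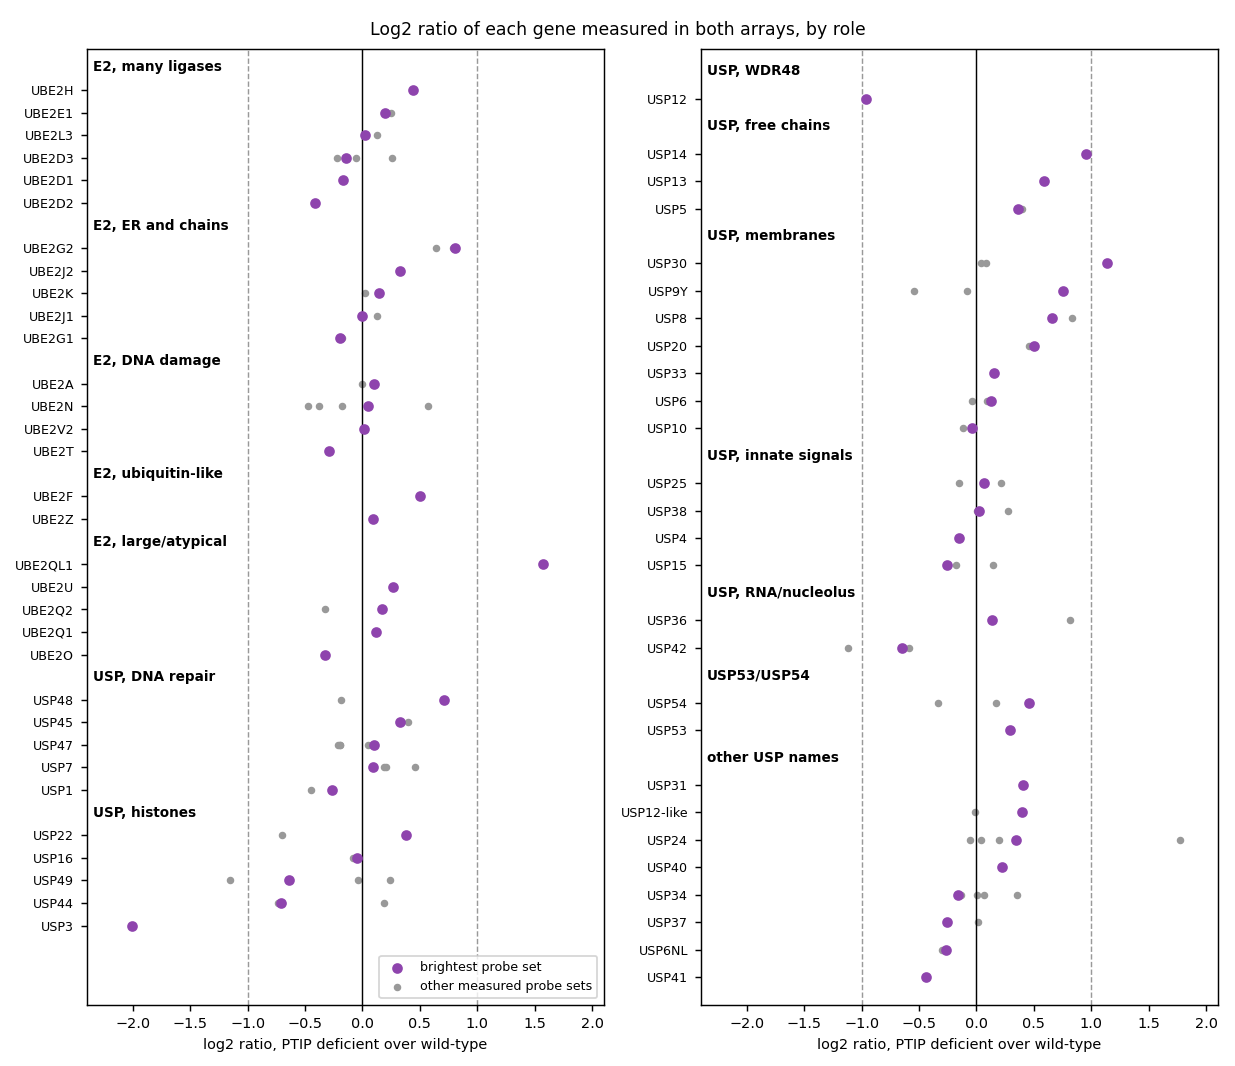
Log2 ratio of PTIP deficient over wild-type cells for the 59 genes measured in both arrays, grouped by role, with the brightest probe set in purple and the other measured probe sets of the same gene in grey. Dashed lines mark 2-fold. Only USP3, UBE2QL1 and USP30 have their purple point past a dashed line, and the grey points of USP30 lie near 0.

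Deubiquitinases of histones held the lowest member. USP3, which removes ubiquitin from histones H2A and H2B, had a signal of 596 in PTIP deficient, against 2396 in wild-type cells, 4.02-fold lower (log2 ratio -2.01). It ranked 94 from the bottom among the 9165 genes and was well over 131.5 in both arrays, but it was represented by 1 probe set of the _s_at kind. USP44 and USP49, related proteases reported to act on H2B, were also lower with their brightest probe sets. USP44 had 180 in PTIP deficient, against 295 in wild-type cells (-0.71), with 3 of its 4 measured probe sets between -0.74 and -0.70. Those 3 are of the _s_at kind, and the fourth, the only one that is not, had 83.4 in PTIP deficient and 73.4 in wild-type cells. USP49 had 613 in PTIP deficient, against 953 in wild-type cells (-0.64). Its second brightest probe set, over 131.5 in both arrays, showed almost no difference, at 163 in PTIP deficient and 167 in wild-type cells (-0.04). The measured probe sets of USP49 ranged from -1.15 to 0.24, both ends having a signal under 131.5. USP16, another H2A protease, was at -0.05 and its second probe set at -0.08.

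USP22, the fifth gene placed in this group, is the catalytic subunit of the deubiquitinating module of the SAGA coactivator. Its signal was 1117 in PTIP deficient cells and 859 in wild-type cells (0.38), and a second, dim probe set had 39.5 in PTIP deficient and 64.2 in wild-type cells. In this group 3 of 5 genes were past 1.5-fold, all 3 lower, and the median was -0.64, beside 11.5% lower by that much and a median of 0.03 over all genes. A group of 5 genes gives only a coarse share. The group was drawn up with earlier results known, and its share and median depend on which genes it holds. USP3 and USP44 rest on _s_at probe sets, and the second brightest probe set of USP49 was at -0.04. ATXN7, which anchors that module to SAGA, differed far more than the protease itself. It had 1755 in PTIP deficient, against 363 in wild-type cells, 4.84-fold higher, and its 2 probe sets gave log2 ratios of 2.27 and 2.35. ENY2, a further subunit of the module named here after its values were seen, had 11913 in PTIP deficient cells and 9175 in wild-type cells (0.38).

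Of the 5 proteases of DNA repair and checkpoint control, 1 (USP48) was past 1.5-fold with its brightest probe set, beside 24.5% of all measured genes. USP1, which deubiquitinates FANCD2 and PCNA, was slightly lower with both probe sets, the brighter at 2886 in PTIP deficient, against 3459 in wild-type cells (-0.26) and the other at -0.45. USP7, which stabilises MDM2 and p53, had 3533 in PTIP deficient cells and 3309 in wild-type cells, and its 4 measured probe sets all lay above 0, from 0.09 to 0.46. USP45, a protease of the ERCC1 nuclease, was at 0.33 with a second probe set at 0.40. USP47, which acts on DNA polymerase beta, was at 0.10, but 3 of its 5 probe sets lay below 0. USP48 had 6733 in PTIP deficient, against 4115 in wild-type cells (0.71), whereas its second probe set gave -0.19 (803 in PTIP deficient and 915 in wild-type cells).

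USP12 and USP46 are close paralogs that, like USP1, are activated by WDR48. USP12 had dim signals of 51.2 in PTIP deficient cells and 99.6 in wild-type cells, both under 131.5, so no fold is given. It is 1 of the 5 members counted as 1.5-fold lower, and 4 of them had both signals at or over 131.5. USP46 had 48.8 in PTIP deficient and 22.6 in wild-type cells and so reached the floor in PTIP deficient cells alone. The gene listed as USP12-like had 983 in PTIP deficient cells and 749 in wild-type cells (0.39), with a second probe set at -0.01. WDR48 itself, named after its values were seen, had 971 in PTIP deficient and 1039 in wild-type cells (-0.10). WDR20, a further activator of USP12 and USP46 also named after its values were seen, had 161 in PTIP deficient and 249.9 in wild-type cells (-0.63), but its 3 measured probe sets ranged from -0.63 to -0.06.

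The 3 proteases that act on free chains and at the proteasome had higher signals in PTIP deficient cells, as had 52.6% of all measured genes. USP14, which trims chains on the proteasome, had 8633 in PTIP deficient, against 4452 in wild-type cells, 1.94-fold higher, just inside the 2-fold bar, with 1 probe set. USP5, which disassembles unanchored chains, had 6493 in PTIP deficient cells and 5062 in wild-type cells (0.36), and its second probe set gave 0.40. USP13, the paralog of USP5, had 524 in PTIP deficient cells and 349 in wild-type cells (0.59, 1 probe set). The group's median of 0.59 compares with 0.03 over all genes, for 3 genes only. PSMD2, a proteasome subunit, was 2.13-fold higher, at 7628 in PTIP deficient, against 3587 in wild-type cells, and its probe sets gave 1.05 and 1.09. USP13 and PSMD2 both lie on chromosome 9, whose measured genes had a median log2 ratio of 0.38. PSMD14 and ADRM1, other proteasome genes named after their values were seen, were at 0.12 and 0.30.

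Of the 8 proteases of endosomes, membranes, mitochondria and stress granules, 7 were measured, 6 of them above 0, beside 52.6% of all measured genes. A group of 7 genes gives only a coarse share, and the probe sets of USP30 and USP9Y differed. USP30, a mitochondrial protease that opposes PINK1 and parkin, had 795 in PTIP deficient, against 362 in wild-type cells, 2.20-fold higher with its brightest probe set. Its other 2 measured probe sets showed almost no difference, at 509 in PTIP deficient and 482 in wild-type cells (0.08) and at 478 in PTIP deficient and 465 in wild-type cells (0.04). The 2-fold call for USP30 is therefore that of 1 probe set in 3. USP8, which deubiquitinates receptors at endosomes, had 1196 in PTIP deficient, against 757 in wild-type cells (0.66), and its second probe set agreed at 0.84. USP20 had 386 in PTIP deficient cells and 273 in wild-type cells (0.50, the second probe set 0.46), while its paralog USP33 was at 0.16. The gene annotated as USP9Y, on chromosome 1, had 3488 in PTIP deficient, against 2072 in wild-type cells (0.75), but its 2 other measured probe sets gave -0.09 and -0.55. USP10, which binds G3BP1 in stress granules, was at -0.04, the gene annotated as USP6 at 0.13, and USP2 was under the floor in both arrays (18.7 in PTIP deficient cells and 30.3 in wild-type cells).

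Proteases linked to innate signalling differed by less than 1.5-fold, a bar that 24.5% of all measured genes passed. USP4 and USP15, which are paralogs, had log2 ratios of -0.16 and -0.25, USP25 0.07 and USP38 0.02. The measured probe sets of USP15 ranged from -0.25 to 0.15. Of the RNA and nucleolar proteases, USP36, a nucleolar enzyme, was at 0.13 with its brightest probe set and at 0.81 with the other. USP42 was lower with all 3 of its probe sets, the brightest at 240 in PTIP deficient, against 377 in wild-type cells (-0.65) and the others at -0.59 and -1.12. USP53 and USP54, a related pair, had signals under 131.5 in both arrays, so no fold is given. USP53 had 61.4 in PTIP deficient and 50.1 in wild-type cells, and USP54 had 98.95 in PTIP deficient and 72.2 in wild-type cells. The 3 measured probe sets of USP54 differed in sign.

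None of the remaining USP-named genes measured in both arrays reached 1.5-fold, beside 24.5% of all measured genes past that bar. USP31 (0.41) and USP24 (0.34) were the highest apart from USP12-like, USP40 was at 0.22, and the very large protease USP34 at -0.16 with 5 measured probe sets from -0.16 to 0.35, the highest of them dim. USP37, which opposes the anaphase-promoting complex on cyclin A, was at -0.26. USP6NL, which despite its name is a GTPase-activating protein for Rab proteins and no protease, was at -0.27, its second probe set being under 131.5 in both arrays. USP41 had only dim signals of 37.5 in PTIP deficient cells and 50.9 in wild-type cells. One of the 5 probe sets of USP24 had 144 in PTIP deficient cells and 42.1 in wild-type cells, hardly over 131.5 in the brighter array, while the other 4 lay between -0.06 and 0.34. USP43 had 56.7 in PTIP deficient and 22.3 in wild-type cells, the second under the floor, and USP35 was under it in both arrays.

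Different probe sets of a gene are the only repeat measurement in these data. For 37 members with 2 or more measured probe sets, the log2 ratios of the 2 brightest differed with an SD of 0.40, beside 0.50 over 4284 genes of the whole array. Both had the same sign in 24 of the 37 (64.9%, against 73.3% of the 4284), and in 18 of the 37 all measured probe sets lay on 1 side of 0. Of the 13 members past 1.5-fold, 8 had 2 or more measured probe sets, and in 4 of these (UBE2G2, USP8, USP42 and USP30) all lay on the same side of 0. In 3 of the 4, UBE2G2, USP8 and USP42, every measured probe set was itself past 1.5-fold in the same direction, although 1 of those of UBE2G2 was under 131.5 in both arrays and 1 of those of USP42 in PTIP deficient cells. USP3, UBE2QL1, USP14, USP13 and USP12 had a single measured probe set and no such check. This repeat covers probe error and neither the hybridisation nor the spread between cultures or clones.

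The members are spread over the genome, the 59 measured ones over 23 chromosomes of the GRCg7b assembly. Genes of chromosome 9 as a whole were higher in PTIP deficient cells, with a median log2 ratio of 0.38 over 262 measured genes, and both members on it, UBE2G2 and USP13, were among the 8 members past 1.5-fold upward. Relative to that median they were at 0.42 and 0.21, both within 1.5-fold. Among the genes named from the pathway lists, PSMD2, RNF7 and SENP5 lie on chromosome 9 too. Chromosome 20 had a median of 0.37 over 215 genes, and its 1 member, UBE2U, was at 0.26. The medians of the other 21 chromosomes with a measured member lay between -0.06 and 0.19. After subtracting the chromosome median from each ratio, 2 members were 2-fold or more higher and 1 lower, as before. That count could hardly change, because the chromosomes of USP3, UBE2QL1 and USP30 had medians of 0.05, 0.01 and 0.02. The members' median was 0.07 after this step. The part of the chromosome in these ratios was not tested.

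**Figure D4:**
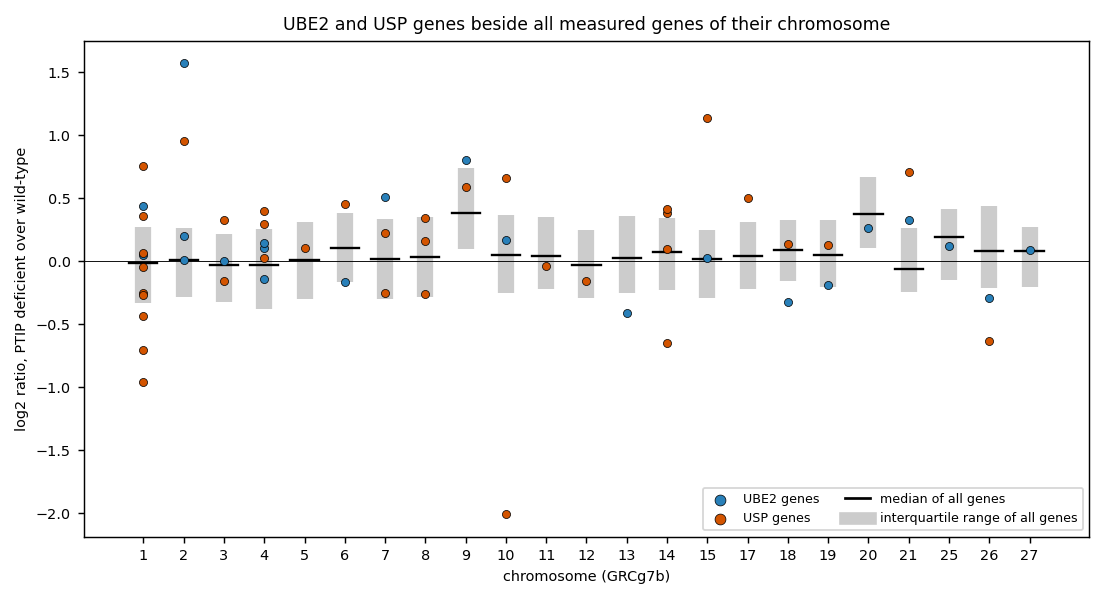
Log2 ratio of PTIP deficient over wild-type cells for the 59 measured members by chromosome, UBE2 genes in blue and USP genes in orange, beside the median (black bar) and interquartile range (grey) of all genes measured on that chromosome. Chromosomes 9 and 20 have medians of 0.38 and 0.37, and the 2 members on chromosome 9 lie above 0.5. USP3 on chromosome 10, UBE2QL1 on chromosome 2 and USP30 on chromosome 15 lie outside the interquartile range of chromosomes whose medians are near 0.

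The measured genes next to the 3 members past 2-fold were looked at after the ratios were known, 3 on each side in the order of the annotation. Beside USP3 on chromosome 10, RAB8B, a small GTPase of vesicle transport, had 2804 in PTIP deficient, against 6624 in wild-type cells (-1.24). CA12, a carbonic anhydrase between RAB8B and USP3, had dim signals of 35.1 in PTIP deficient and 112 in wild-type cells. HERC1, the ubiquitin ligase on the other side of USP3, had 931 in PTIP deficient cells and 962 in wild-type cells (-0.05), and the 3 other neighbours lay between -0.22 and 0.38. Around UBE2QL1 none of the 6 neighbours was 2-fold apart, their log2 ratios ranging from -0.94 for IKZF1 to 0.75 for SRD5A1. Near USP30, the uracil-DNA glycosylase gene UNG was lower (-1.64, 2742 in PTIP deficient, against 8549 in wild-type cells), and TMEM119 had 239 in PTIP deficient and 31.5 in wild-type cells, so that neighbours differed in both directions.

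The rest of the ubiquitin system was described by 6 lists of genes, whose counts stand beside 9.49% past 2-fold over all genes and 5.84% over those at or above 131.5 in both arrays. At those shares, lists of this size hold few such genes or none. Of 25 measured ligases and ligase partners that work with these E2 enzymes, 0 were past 2-fold (median 0.04). NEDD4, a HECT ligase, had 187 in PTIP deficient, against 97.3 in wild-type cells. That was at least 1.42-fold higher against 131.5 with its brightest probe set, but its 3 measured probe sets ranged from 0.15 to 0.94. BIRC8, the symbol under which RefSeq holds the gene listed as XIAP, had 113 in PTIP deficient, against 198 in wild-type cells, at least 1.51-fold lower against 131.5. RNF7, a RING partner of cullin 5 that works with UBE2F, had 9104 in PTIP deficient and 5836 in wild-type cells (0.64), its 4 probe sets ranging from 0.08 to 0.64. RAD18 and RNF8, ligase partners of UBE2A and UBE2N named after their values were seen, were at -0.01 and 0.04.

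Of 14 measured genes of the anaphase-promoting complex, 1 was past 2-fold. CDC23, a scaffold subunit, had 1313 in PTIP deficient, against 3550 in wild-type cells, 2.70-fold lower with 1 probe set. Its other subunits and activators lay between -0.50 and 0.38 (median of the list -0.06), and the inhibitor FBXO5, also named after its values were seen, had dim signals of 17.0 in PTIP deficient and 76.1 in wild-type cells. Of 14 measured partners of USP enzymes, ATXN7 and PSMD2 were at least 2-fold higher and 0 were lower (median 0.15).

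None of the 6 measured ubiquitin and E1 genes was past 2-fold (median 0.01). UBA2, a subunit of the SUMO E1 enzyme, had 2850 in PTIP deficient, against 4374 in wild-type cells (-0.62, the other probe set -1.13). UBA3, of the NEDD8 E1 enzyme, was at -0.28, and RPS27A, which encodes ubiquitin fused to a ribosomal protein, at 0.15. Of 21 measured genes on a list of further deubiquitinating enzymes and related proteins, 0 were past 2-fold (median 0.07, range -0.58 to 0.57). BRCC3, the protease of the BRCA1-A complex, had 1211 in PTIP deficient, against 1809 in wild-type cells, JOSD1 had 949 in PTIP deficient and 641 in wild-type cells, and STAMBP, an endosomal protease, had 340 in PTIP deficient and 234 in wild-type cells. Of 14 measured SUMO and NEDD8 pathway genes 0 were past 2-fold either (median -0.01). The proteases SENP5 and SENP8, for SUMO and NEDD8, were at 0.59 and -0.59, and SENP7 had signals under 131.5 in both arrays.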

How the data were processed

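Total RNA of 1 PTIP deficient and 1 wild-type DT40 culture was measured on 2 Affymetrix chicken genome arrays. The authors deposited linear signal intensities for 38535 probe sets, made with GCOS per the submitters' processing notes; version, algorithm and genome build: not given in the sources used here. Both arrays had a mean of 499.9 between percentiles 2 and 98, so each had been scaled to a common target, and a difference in total RNA per cell cannot be seen.

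From these values 96 control probe sets were left out and log2 ratios were formed as PTIP deficient minus wild-type with no further scaling, where both signals reached percentile 40 (31.0). Gene symbols came from the platform annotation (27178 probe sets with 1 symbol), and 62 of the 63 members matched GRCg7b RefSeq by Entrez identifier. The number of arrays limits the precision, and p-values and intervals are not given. Ratio code was tested on simulated arrays. Python 3.11.15, pandas 2.3.3 and statsmodels 0.14.6 (loess) were used.

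The members, the 14 role groups and the 6 pathway lists were chosen with earlier results of these data known. Every member could be named, and from each pathway list the genes at least 2-fold apart, otherwise up to 3 with the largest absolute log2 ratio; exceptions are marked in the text. Alternatives changed the scaling, the floor and the probe set of a gene.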

Additional observations from a re-analysis of the deposited data

How the results depend on the processing

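The counts of 2 members at least 2-fold higher and 1 lower were the same with median centring, quantile normalization, loess, a floor at percentile 60, a floor at 131.5, and no floor with an offset of 32. With the floor at percentile 20 they were 4 and 2, USP43 and USP46 and, downward, USP35 being added. With the mean of all measured probe sets 1 member was higher (UBE2QL1, without USP30) and 1 lower. Without _s_at and _x_at probe sets, which leaves out USP3 and UBE2QL1, 1 was higher and 0 lower among 48 members. With the second brightest probe set, which only 37 members have, 0 were higher and 0 lower. The median of all members moved to 0.038 without _s_at and _x_at probe sets and to -0.0085 with the second brightest, that of UBE2 genes to 0.013 with the second brightest, and that of USP genes to 0.062 with the mean, to 0.049 without _s_at and _x_at probe sets and to -0.036 with the second brightest. The slight upward shift of the members thus depends on the probe set chosen. For single members, scaling and the offset moved no ratio by the probe set SD of 0.36 or more. A changed floor only decides which members are counted and cannot move a ratio. The mean moved 5 of 59 ratios by that much and the second brightest probe set 11 of 37. Leaving out _s_at and _x_at probe sets moved 3 of 48 (USP44 to 0.18, USP48 to -0.19 and USP54 to -0.33). Without replicates, no difference here can be set against the spread between cultures, and dim probe sets (under 131.5 in both arrays for 4 measured members) are the least certain. No paired analysis was possible because each genotype has 1 array.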
